A study of Mus musculus with 27 samples.

Results

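The Runx genes encode the DNA-binding subunits of core binding factor, and Cbfb encodes the subunit they share. Runx1, Runx2, Runx3 and Cbfb were taken by gene symbol from a table of 9 RNA-seq libraries of a mouse kidney cell line, as 4 of the 24953 genes listed there. Peaks of Runx1 and Runx2 from ChIP-seq, and accessible regions from ATAC-seq, were then read at the same 4 genes. The series as analysed here held 27 samples, of which 9 were RNA-seq, 6 were ATAC-seq and 12 were ChIP-seq.

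The control was mK4, an immortalised line from mouse metanephric mesenchyme, the tissue that gives rise to nephrons. The Runx1KO line was made from mK4 by cutting on either side of a coding part of Runx1 exon 3 with Cas9 and a pair of guides. The ZebDKO line carried deletions in Zeb1 exon 2 and in Zeb2 exon 1, and no Runx gene was targeted in it. Each group had 3 RNA-seq libraries from cultures grown in triplicate. Knockout cells were expanded from picked clones, and how many clones stood behind the libraries of a group is not given in the sources used here, so p-values measure only the spread between these cultures. Only the 3 ZebDKO libraries had featureCounts and DESeq2 in their processing notes, and whether all libraries were prepared together is not given, so genotype and preparation cannot be told apart.

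A Runx protein binds DNA through its Runt domain, and Cbfb, which does not contact DNA itself, strengthens that binding and stabilises the protein. Runx1 is best known for the start of blood formation, Runx2 for bone formation and Runx3 for T cells and sensory neurons. Each Runx gene has a distal promoter and a proximal promoter, which give proteins with different first residues, and Runx proteins recognise a short core motif, TGTGGT, in DNA.

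Sequences at the distal starts of the 3 Runx genes are shown first because they place that core motif at the Runx genes themselves. The longest run of bases shared by RefSeq promoters of Runx1, Runx2 and Runx3 (GRCm38.p6, 250 bases before to 50 after a start) was 18 bases long. It held ACCACA, which is TGTGGT read on the other strand, in 2 copies. This run was looked for after the sequences had been read. It is in capitals in the 30-base windows that follow, all written 5′ to 3′ in the direction of the gene and read from mm9.
Runx1 distal start: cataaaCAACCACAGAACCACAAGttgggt
Runx2 distal start: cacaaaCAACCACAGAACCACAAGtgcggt
Runx3 distal start: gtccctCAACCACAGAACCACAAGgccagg

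The Runx1 window is at chr16:92826270-92826299 on the minus strand, in the first exon, and its 18-base run begins 18 bp downstream of the annotated distal start. The Runx2 window is at chr17:44951532-44951561 on the minus strand, with the run beginning 21 bp downstream of a distal start. The Runx3 window is at chr4:134676418-134676447 on the plus strand, with the run beginning at -143 bp from the distal start. Of 32817 RefSeq mouse promoters, 4 held the 18-base run on either strand, which is 0.0122%. They belonged to Runx1, Runx2, Runx3 and Gm16225, and the Cbfb promoter did not hold it. The Runx genes were among them by construction, since the run was defined as shared by their promoters. TGTGGT itself was present on either strand in 16.8% of those promoters. The run at Runx1 lay under a Runx1 peak and under Runx2 peaks of both control and Runx1KO cells, the run at Runx3 lay under Runx2 peaks of both, and no peak was listed at the run of Runx2.

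The targeted gene was read first. The guides matched mm9 on the plus strand at chr16:92695999-92696018 and chr16:92695721-92695740, and are written with the PAM, the bases Cas9 needs beside its target, in capitals.
Guide before the start codon: cacaacaagccgattgagtaAGG
Guide at the exon end: aggagtaccttgaaagcgatGGG
Cuts 3 bases from each PAM would remove chr16:92695738-92696015, a stretch of 278 bp. In the transcripts that begin at the proximal promoter's main start the stretch held the start codon and 261 coding bp, and in a shorter transcript that begins inside exon 3 it held the start codon and 156 coding bp. In the annotated transcripts of the distal promoter it held 245 coding bp, a number that shifts the reading frame, while their start codon at position 92825891 stayed outside. The exon is shown in the direction of the gene (chr16:92695729-92695998, minus strand), from the proximal start codon in capitals to the end of the exon, because the Runx1KO line was designed to lose 261 of its 270 bases, all but the last few printed.
Runx1 exon 3 coding part: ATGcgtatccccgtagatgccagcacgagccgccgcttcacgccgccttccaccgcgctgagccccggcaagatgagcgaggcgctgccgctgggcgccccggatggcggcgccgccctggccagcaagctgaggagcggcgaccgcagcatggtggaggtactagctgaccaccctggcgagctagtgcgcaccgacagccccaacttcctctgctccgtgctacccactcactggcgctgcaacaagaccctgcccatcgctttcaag

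Gene-level TPM (a level per gene length, scaled to the total of a library) counts reads over every exon, so a Runx1 value in Runx1KO does not check that deletion. In control the 3 libraries gave Runx1 levels of 18.7, 15.6 and 17.9 TPM. In Runx1KO they gave 30.3, 30.1 and 28.5 TPM. In ZebDKO they gave 9.4, 10.5 and 10.4 TPM. The 3 groups did not overlap: Runx1 RNA was highest in the cells whose Runx1 exon 3 was targeted and lowest in ZebDKO. The check of the other label by RNA was likewise limited, since Zeb1 stood at 14.2 to 15.6 TPM in control and 14.8 to 16.8 TPM in ZebDKO, while Zeb2 went from 4.9 to 5.5 TPM in control to 1.6 to 1.8 TPM in ZebDKO. For Runx1KO the paper reported deletion of the targeted exon by PCR and the loss of Runx1 protein by Western blot. The Runx1 values given here are RNA levels. For ZebDKO the paper reported both exon deletions by PCR and the loss of Zeb1 protein by Western blot.

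Runx2, the bone-forming paralogue, gave 6, 4.9 and 5.5 TPM in control. In Runx1KO it gave 3.9, 3.7 and 3.6 TPM, and in ZebDKO 3.1, 3.5 and 3.3 TPM. Every control library was above every knockout library of either kind, and all 3 ZebDKO libraries were below all 3 of Runx1KO. These are RNA levels, and the paper reported Runx2 protein as unchanged in Runx1KO by Western blot. Runx3, the T cell and neuronal paralogue, was near 0 in every library, at 0.3, 0.1 and 0.2 TPM in control, listed at 0 in all 3 Runx1KO libraries, and at 0, 0.1 and 0.2 TPM in ZebDKO. It failed the minimum of 1 TPM in 3 libraries and is given no fold change, since Runx1KO was listed at 0. With no filter on low values it passed in Runx1KO against control, where Runx3 fell by 0.26 on the log2(TPM + 1) scale (SE 0.0653, limma adjusted p = 0.0176), at levels of 0.3 TPM or less, and it did not pass in ZebDKO against control (-0.13, limma adjusted p = 0.296) or between the knockouts (0.13, limma adjusted p = 0.15). Cbfb, the shared subunit, gave 83, 75.5 and 76.1 TPM in control, 73.3, 71.4 and 74.3 TPM in Runx1KO, and 57.3, 60.4 and 56.4 TPM in ZebDKO. The ZebDKO libraries had the lowest Cbfb levels, and the Runx1KO libraries lay just under the control libraries. The order Cbfb, Runx1, Runx2, Runx3 held in each of the 9 libraries, with no overlap between neighbours within a group. In control, 88.1% of listed genes were lower than Cbfb, 68.7% were lower than Runx1 and 58.0% were lower than Runx2.

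**Figure D1:**
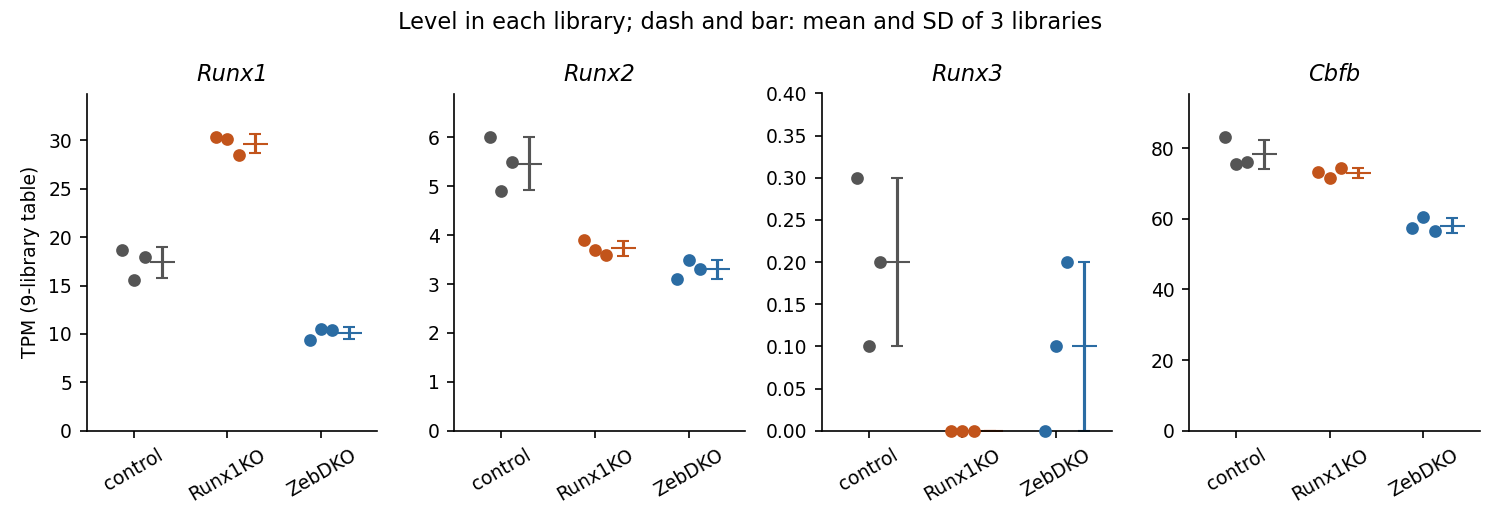
Level of Runx1, Runx2, Runx3 and Cbfb in TPM (vertical axis, a separate linear scale from 0 for each gene) in the 3 control, 3 Runx1KO and 3 ZebDKO libraries, with each point a library and each dash and bar the mean with SD. Runx1 was highest in Runx1KO and lowest in ZebDKO, Runx2 and Cbfb were lowest in ZebDKO, and Runx3 was at 0.3 TPM or less throughout.

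Fold changes are on the log2(TPM + 1) scale, with the standard error (SE), from limma fitted over all genes past the filter, and p-values were adjusted by the Benjamini-Hochberg method. In Runx1KO against control, Runx1 rose by 0.74 (SE 0.0685, 1.67-fold, limma adjusted p = 6.72e-05), higher in 3 of 3 libraries. Runx2 fell by 0.45 (SE 0.0785, 1.36-fold, limma adjusted p = 0.00175), lower in 3 of 3. Cbfb did not pass (-0.10, 95% interval -0.20 to 0.0048, limma adjusted p = 0.0794). So 2 of the 3 tested members passed, 1 higher and 1 lower, in a comparison in which 70.5% of 13067 genes passed at an adjusted p under 0.05, 30.4% higher and 40.1% lower. No member changed by over 2-fold, as 13% of genes did. All 3 tested members had groups that did not overlap in TPM, which was also true of 73.7% of genes, so the counts by themselves did not set the members apart. Larger changes than that of Runx1 were fitted for 18.8% of genes, and larger ones than that of Runx2 for 32.9%. In these bulk libraries, a smaller share of cells that express a gene cannot be told apart from less RNA per cell.

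In ZebDKO against the same 3 control libraries, all 3 tested members passed, and all were lower. Runx1 fell by 0.73 (SE 0.0778, 1.66-fold, limma adjusted p = 8.33e-05), Runx2 fell by 0.59 (SE 0.0841, 1.50-fold, limma adjusted p = 0.000405), and Cbfb fell by 0.42 (SE 0.0485, 1.34-fold, limma adjusted p = 0.00012). Of 12974 genes tested, 79.4% passed, with 52.5% lower and 26.9% higher in ZebDKO (6809 and 3496 genes), a split that came to 4911 and 4955 under median-ratio scaling. Groups failed to overlap for 81% of genes, and 14.8% passed with over 2-fold, which none of the members did.

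Set against Runx1KO directly, ZebDKO had Runx1 lower by the widest margin of any member, and Runx1 fell by 1.47 (SE 0.0540, 2.76-fold, limma adjusted p = 4.45e-07), lower in 3 of 3 libraries. Only 7.37% of genes had a larger fitted change there. Cbfb fell by 0.33 (SE 0.0364, 1.25-fold, limma adjusted p = 0.000103). For Runx2 the difference was -0.14 with an interval of -0.30 to 0.02 (limma adjusted p = 0.0965), so the lower Runx2 of the knockouts was not resolved between them. In this comparison 80% of 13071 genes passed, 29.8% higher and 50.2% lower in ZebDKO (3897 and 6562 genes, or 5041 and 5328 under median-ratio scaling), 81.7% did not overlap, and 15.8% passed with over 2-fold, Runx1 among them.

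The median of all tested genes was itself below 0, at -0.06, -0.18 and -0.15 for Runx1KO against control, ZebDKO against control and ZebDKO against Runx1KO. Relative to that median the Runx1 differences were 0.80, -0.54 and -1.32. The Runx2 differences were -0.39, -0.40 and 0.0096, and those of Cbfb were -0.038, -0.24 and -0.18. Runx1 thus kept its opposite directions, while the Runx2 difference between the knockouts was close to 0 on this scale and took a positive sign under quantile scaling.

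**Figure D2:**
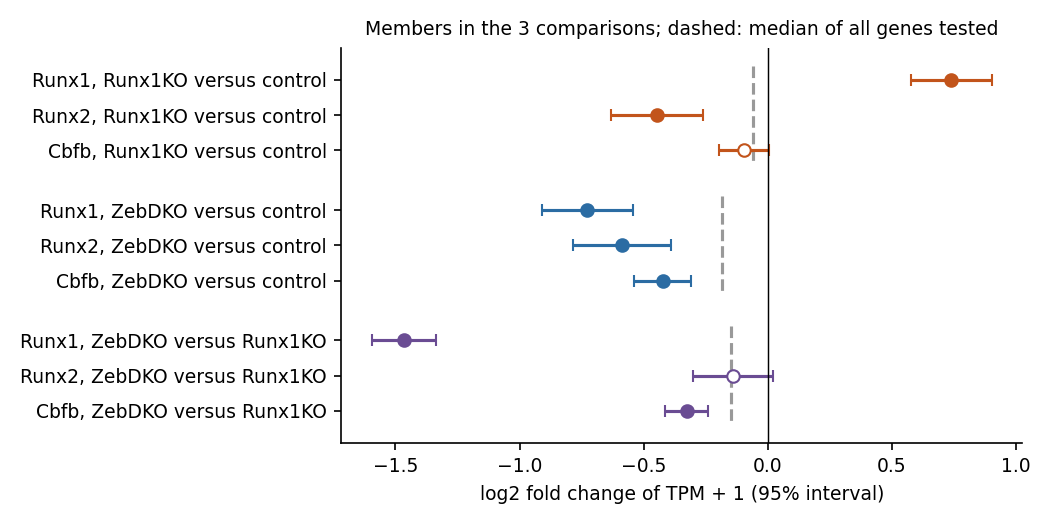
Differences of Runx1, Runx2 and Cbfb on the log2(TPM + 1) scale (horizontal axis) with 95% intervals from limma in the 3 comparisons, with open points for those that did not pass and dashed lines at the median of all tested genes. The interval of Runx1 lies above 0 in Runx1KO and below 0 in both other comparisons, and the intervals of Cbfb in Runx1KO against control and of Runx2 between the knockouts include 0.

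The proportions of the Runx RNAs moved with these changes. Runx1 exceeded Runx2 by 3.18 ± 0.0689 times in control (SD, n = 3 libraries here and for the ratios that follow), by 7.94 ± 0.184 times in Runx1KO and by 3.06 ± 0.0798 times in ZebDKO. Runx2 made up 23.7% ± 0.356 of the summed Runx TPM in control, 11.2% ± 0.230 in Runx1KO and 24.5% ± 0.618 in ZebDKO. The share of Runx2 was therefore lower in Runx1KO by more than the spread between libraries, whereas control and ZebDKO had nearly the same proportions at different totals. The sum of the Runx levels was 23.1 ± 2.25 TPM in control, 33.4 ± 1.12 TPM in Runx1KO and 13.5 ± 0.872 TPM in ZebDKO. Cbfb RNA exceeded that sum in every library, by 3.40 ± 0.232 times in control, 2.19 ± 0.109 times in Runx1KO and 4.31 ± 0.264 times in ZebDKO. These ratios are descriptions and were not tested.

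A separate table held other TPM values of the same control and Runx1KO samples, as 6 libraries. It was therefore a second quantification and not a replicate. It gave the same directions with other proportions. Runx1 stood at 32.62, 27.3 and 31.68 TPM in control and at 57.58, 58.07 and 52.84 TPM in Runx1KO. Runx2 stood at 25.25, 23.71 and 25.02 TPM in control and at 15.13, 15.93 and 13.5 TPM in Runx1KO. Runx1 exceeded Runx2 in control by only 1.24 ± 0.0748 times there, against 3.18 in the larger table, and in Runx1KO by 3.79 ± 0.135 times. Cbfb stood at 194.68, 172.33 and 174.32 TPM in control and at 168.03, 161.61 and 172.79 TPM in Runx1KO, and Runx3 was at 0.05 to 0.13 TPM and then listed at 0. The ratio of this table to the other was taken on means over control and Runx1KO together. It was 1.84 for Runx1, 4.29 for Runx2 and 2.30 for Cbfb, beside a median of 0.709 over 11319 genes. The gene lengths behind the tables are not given, so a level of a member relative to another holds only within its table, while the fitted differences of this table, 0.86 for Runx1, -0.70 for Runx2 and -0.11 for Cbfb (limma adjusted p = 0.0981), had the signs of the other.

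Supt3 (Supt3h), whose gene overlaps Runx2 on the opposite strand and encodes a subunit of a transcription coactivator complex, stood at 13.2, 16.1 and 16.8 TPM in control, at 16.7, 14.4 and 16.8 TPM in Runx1KO and at 12.9, 12.7 and 14.7 TPM in ZebDKO. It did not have the step between control and Runx1KO seen for Runx2. Whether the counting used strand is not given, so reads from the overlapping parts of these genes cannot be told apart.

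Markers of cell type moved with the groups. Of 10 epithelial markers, 1 was at 1 TPM or more in all control libraries, 6 in all of Runx1KO and 5 in all of ZebDKO, and their sum was 2.8 to 5.1, 2660.6 to 2742.6 and 1150.8 to 1209.6 TPM, mostly from the keratin gene Krt8. Epcam, a defining epithelial marker, was at 0 in control and Runx1KO. The sum of 7 mesenchymal markers was 3094.3 to 3223.9, 2943.4 to 3005 and 2373.9 to 2406.7 TPM, mostly from Vim. In the same order of groups, Vim stood at 2748.8 to 2887, 2782.2 to 2844.7 and 2075.9 to 2114.3 TPM. Cdh2 stood at 266.5 to 267.8, 139.6 to 145.6 and 179.6 to 190.1 TPM. Fn1 stood at 48.8 to 55.4, 17.6 to 18.3 and 92 to 105.6 TPM. Zeb1 and Zeb2 were at 0.1 to 0.2 TPM in Runx1KO, and Col1a1 and Col1a2 were at 3.5 TPM or less throughout. Of 10 markers of nephron progenitors, Six2 and Hoxd11 were at 0 in control, and the sum of the list stayed between 615.3 and 784.6 TPM. Its members moved in different directions. Over control, Runx1KO and ZebDKO, Osr1 stood at 64.1 to 70.9, 0.3 to 0.5 and 17.1 to 18.9 TPM. Gdnf stood at 11.4 to 13.6, 0.1 and 38.6 to 41.4 TPM, and Eya1 at 15.9 to 16.6, 5.4 to 6.1 and 16.9 to 17.1 TPM. Pax2 stood at 310.2 to 315.7, 430.9 to 501 and 209.5 to 236.3 TPM, and Sall1 at 49.5 to 53.7, 62.3 to 68.6 and 35.6 to 38.7 TPM. Hoxa11 stood at 212.4 to 217.4, 209.2 to 216.6 and 288.4 to 296.3 TPM. Among 8 blood cell markers, Ptprc was at 0 in all 9 libraries while the sum was 3.1 to 4, 55.9 to 58.9 and 35.7 to 39.1 TPM. The sums for 4 endothelial and 4 bone markers were 5.8 TPM or less throughout. The part of these shifts in the levels of the Runx genes and Cbfb was not tested.

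The genes known to work with Runx proteins were taken from fixed lists. Corepressors of the Groucho, ETO and related families bind Runx proteins at silenced genes. In Runx1KO against control, 1 of the 12 tested corepressors rose and 8 fell (median -0.18, beside -0.06 over all genes, of which 30.4% rose and 40.1% fell). Tle4, a Groucho corepressor, rose from 9.43 to 19.1 TPM (0.95), while its relatives fell, Tle3 from 27.0 to 13.6 TPM (-0.94) and Tle2 from 5.17 to 2.47 TPM (-0.83). In ZebDKO against control, where 26.9% of all genes rose and 52.5% fell, 2 of the 12 rose and 8 fell, Cbfa2t2, an ETO family corepressor, by the most, from 16.1 to 6.50 TPM (-1.19). Without control replicate 3, 5 fell there, and under median-ratio scaling 4 rose and 5 fell. Between ZebDKO and Runx1KO, with 29.8% of all genes higher and 50.2% lower in ZebDKO, 5 corepressors were higher and 5 lower, or 3 lower when any 1 of the Runx1KO libraries was left out.

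Coactivators and DNA-binding partners, which join Runx proteins at active genes, were the list with the most rises in Runx1KO, 8 of 16 against 2 that fell (median 0.15), beside 30.4% of all genes that rose and 40.1% that fell. The AP-1 subunits Fos and Jun rose, from 412 to 1500 TPM (1.86) and from 712 to 1306 TPM (0.87), and Ets1, which binds DNA beside Runx1, fell from 75.7 to 47.3 TPM (-0.67). The split moved to 5 rises without Runx1KO replicate 1 and to 4 falls without control replicate 2. In ZebDKO against control, 6 rose and 6 fell, beside 26.9% and 52.5% of all genes, and under both median-ratio and quantile scaling 9 rose and 4 fell. Cebpb, a basic leucine zipper factor, rose from 73.3 to 212 TPM (1.52). Between the knockouts, 5 were higher and 9 lower in ZebDKO, beside 29.8% and 50.2% of all genes, Jun by the most (-1.58). Of 18 enzymes that modify Runx proteins, such as kinases and ubiquitin ligases, 5 rose and 4 fell in Runx1KO, shares no larger than the 30.4% and 40.1% of all genes, among them the ligase gene Smurf2, from 28.0 to 50.6 TPM (0.83), and the kinase gene Hipk2, from 10.2 to 5.50 TPM (-0.78). In ZebDKO against control, 7 rose and 8 fell, Hipk2 by the most (-1.54). There 5 fell without control replicate 1, control replicate 3 or ZebDKO replicate 1, and under median-ratio scaling 10 rose and 5 fell. Between the knockouts, 6 were higher and 7 lower in ZebDKO, or 10 higher and 5 lower under median-ratio scaling.

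Textbook targets of the Runx proteins were read in 3 lists. Of 12 skeletal targets of Runx2, 5 were tested, and in Runx1KO 3 of them fell and none rose (median -0.73), in a comparison where 40.1% of all genes fell and 30.4% rose. They were Bglap2, an osteocalcin gene, from 2.30 to 0.40 TPM (-1.23), Spp1, which encodes osteopontin, from 176 to 80.2 TPM (-1.12), and Vegfa, an angiogenic growth factor gene, from 15.2 to 8.73 TPM (-0.73). Bglap2 has a near-identical neighbour, Bglap, so the split of reads between them is uncertain. Bglap2 was at 0.8, 0.4 and 0 TPM in Runx1KO, so it met the filter against Runx1KO only through the other group. Its direction in those comparisons was fixed by the filter, and the counts and medians given here for them include it. In ZebDKO against control, 2 of those 5 rose and 1 fell (26.9% and 52.5% of all genes), or 3 rose and 0 fell under median-ratio scaling, with changes no larger than the 0.54 of Col1a1. All 5 were higher in ZebDKO than in Runx1KO (median 0.89), as 29.8% of all genes were, where Runx2 RNA did not differ beyond its interval. The rises in ZebDKO against control came to 1 without control replicate 2 or ZebDKO replicate 2, and the falls came to 2 without control replicate 1.

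Of 12 targets of Runx1 and Runx3 known from blood cells, 5 were tested, and all 5 passed in each comparison, beside 70.5%, 79.4% and 80% of all genes. Spi1, at 0, 0 and 0.1 TPM in control, met the filter against control only through the knockout libraries. Its direction there was fixed by the filter, so its rises are given as values only, although the counts against control include it. Csf1r, at 0.7, 1 and 0.4 TPM in control, was close to that case. In Runx1KO, Spi1 rose from 0.033 to 25.3 TPM (4.67) and Csf1r from 0.70 to 29.7 TPM (4.19), a factor and a receptor of myeloid cells, and 3 fell, such as the cytokine gene Csf2 from 5.57 to 3.60 TPM (-0.53). In ZebDKO against control, 4 rose and 1 fell, beside 26.9% and 52.5% of all genes, and Csf2 rose to 215 TPM (5.04). Between the knockouts, 2 were higher and 3 lower in ZebDKO, beside 29.8% and 50.2% of all genes. When any 1 Runx1KO library was left out, a single rise was counted in Runx1KO, since a gene must reach 1 TPM in 3 libraries to be tested. Spi1 and Csf1r are also among the 8 blood cell markers, with Ptprc at 0. Of 10 cell cycle inhibitors and other targets, 9 were tested, 4 rose and 5 fell in Runx1KO, beside 30.4% and 40.1% of all genes, and the cyclin gene Ccnd2 rose from 15.0 to 61.5 TPM (1.97). In ZebDKO against control, 2 rose and 5 fell, beside 26.9% and 52.5% of all genes. Socs3, an inhibitor of cytokine signalling, fell there from 219 to 59.6 TPM (-1.86). In ZebDKO against Runx1KO, 3 were higher and 5 lower, beside 29.8% and 50.2% of all genes.

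**Figure D3:**
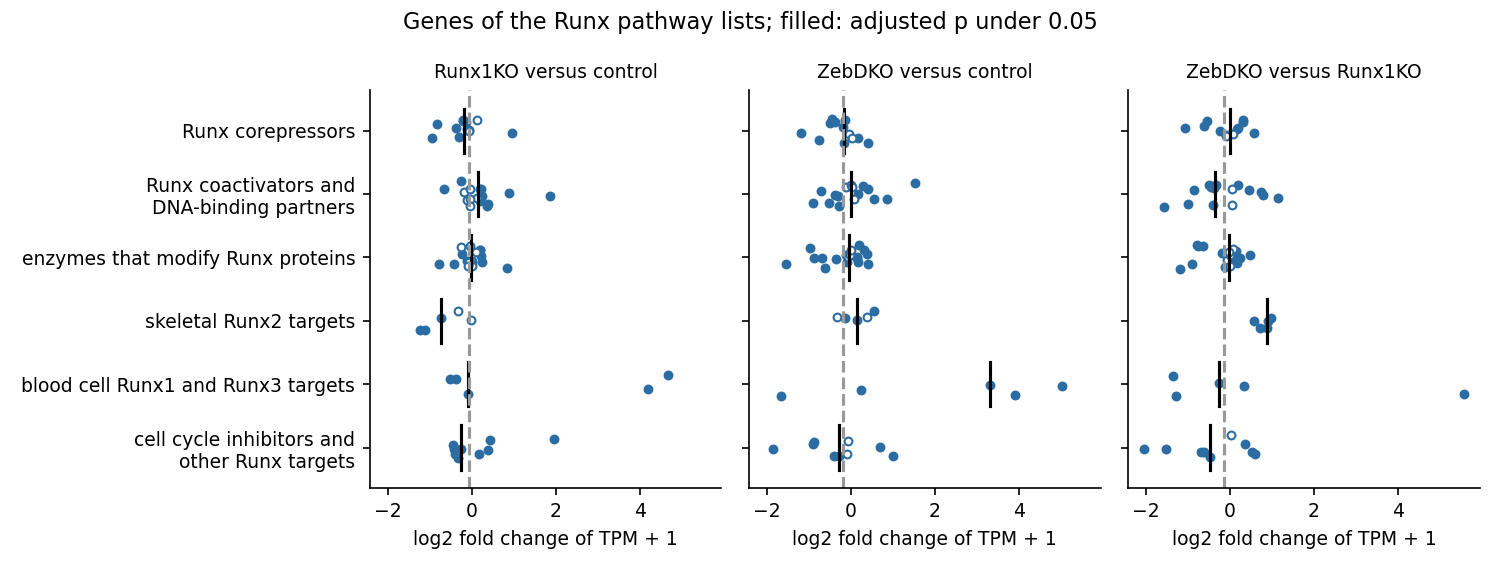
Difference of each tested gene in 6 Runx lists on the log2(TPM + 1) scale (horizontal axis) in the 3 comparisons, with filled points for genes past an adjusted p of 0.05 in limma, a black bar at each list's median and a dashed line at the median of all tested genes. In Runx1KO the skeletal targets have the lowest median, -0.73, and Spi1 (4.67) and Csf1r (4.19) lie farthest right. Spi1 met the filter against control only through the knockout libraries. Bglap2, a skeletal target included in that median, met the filter in Runx1KO against control only through the control libraries.

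The genes with the pattern most like that of each member were found by Pearson's r of log2(TPM + 1) over the 9 libraries among 13374 genes. These r values describe libraries that share 3 groups and are given without a p. For Runx1 the nearest were Fam135a (0.996), Nanos1 (0.995), Phtf2 (0.995), Nsf (0.995) and Dnajb4 (0.995), and 45 genes had r over 0.99. Nanos1, an RNA-binding repressor gene, stood at 13.5, 23.3 and 7.60 TPM in control, Runx1KO and ZebDKO, the order seen for Runx1. For Runx2 the nearest were Kri1 (0.992), Gfpt1 (0.989), Rfx7 (0.989), B930095G15Rik (0.989) and Ankrd52 (0.988), and for Cbfb they included Csnk1a1 (0.997), Syncrip (0.996), Man2a1 (0.995) and Mib1 (0.994). Between members, r was 0.82 for Runx2 and Cbfb, 0.72 for Runx1 and Cbfb, and 0.24 for Runx1 and Runx2.

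ChIP-seq peaks and ATAC-seq regions were next read within the gene and 100 kb to either side. The deposited peaks had been called on 3 replicates combined, so a peak's fold over local background has no replicate error here and the counts below were not tested. In the accessible regions, closing names those the study placed as lost in Runx1KO, opening those gained, and stable those in neither class. The Runx1 gene spans chr16:92601712-92826311 on the minus strand of mm9 (224600 bp). Its locus held 8 Runx1 peaks in control, and 0.827% of 22380 protein-coding loci held as many, beside a median of 1. It is a long gene, and per length 7.06% of loci were as dense. It held 9 Runx2 peaks in control and 4 in Runx1KO, beside medians of 2 and 2. There were 5 closing, 12 stable and 5 opening regions, and 4.53% of loci had as many closing ones.

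The proximal promoter of Runx1 had the strongest Runx1 peak of the locus. It lay at chr16:92696792-92697331, in the 5′ untranslated part of the first exon of the proximal transcripts, with a fold of 9.30 that 1.54% of listed Runx1 peaks exceeded. The whole peak was inside a closing region at chr16:92696747-92698290. A Runx1 peak together with a closing region within 1 kb of a start was seen at 0.550% of protein-coding genes (123 of 22380), and among the 4 members only at Runx1. The expected deletion ended 776 bp from this peak and 731 bp from the closing region, so the peak itself was not among the deleted bases. The 30 bases around the core motif (capitals; chr16:92696922-92696951, plus strand), 170 bp from the summit of the Runx1 peak and 28 bp from that of the Runx2 peak, are shown because they are the part of this promoter that holds the motif.
Runx1 proximal promoter: tgtggctgatccTGTGGTttggtgggagtt
A Runx2 peak covered the same place in control (chr16:92696733-92697325) with a fold of 8.80, which 2.24% of Runx2 peaks exceeded. No Runx2 peak was listed there in Runx1KO. Of the 396 control Runx2 peaks with a fold of 8.80 or more, 8 had no overlapping Runx1KO peak (2.02%), whereas 62.0% of all 17595 control peaks had one.

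The distal promoter differed. Its Runx1 peak at chr16:92826173-92826295 had a fold of 4.40, and its Runx2 peak was 7.72 in control and 8.55 in Runx1KO. No ATAC-seq region lay within 1 kb of the distal start, and the nearest, a stable one, was 1692 bp away. Thus Runx2 was listed at the distal start in both lines and at the proximal start in control only. Gene-level TPM does not tell transcripts of these promoters apart, so which of them carried the higher Runx1 level of Runx1KO cannot be read from this table.

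Inside the gene, an intron peak 172 kb downstream of the distal start (chr16:92654155-92654510) had a Runx1 fold of 8.55, and Runx2 went from 9.47 in control to 5.76 in Runx1KO. The ratio of 0.608 was lower than those of all but 1.35% of the Runx2 peaks present in both lines, whose median ratio was 0.971 with a 5th to 95th percentile range of 0.705 to 1.35. A second intron peak, 204.6 kb downstream, had a Runx1 fold of 6.73 and Runx2 folds of 7.03 and 6.77. The central 201 bases of the first intron peak (chr16:92654204-92654404, plus strand, core motif in capitals) are given as the site with the largest drop in Runx2 fold at a member gene among those listed in both lines.
Runx1 intron peak: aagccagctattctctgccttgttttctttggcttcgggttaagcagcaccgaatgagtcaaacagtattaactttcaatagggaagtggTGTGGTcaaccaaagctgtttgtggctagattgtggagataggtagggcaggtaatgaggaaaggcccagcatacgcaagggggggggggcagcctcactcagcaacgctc

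Upstream of the gene, an opening region at chr16:92872399-92873464 carried a pair of Runx1 peaks in control, with folds of 4.96 and 4.67. The Runx2 fold there was 6.10 in control and 5.28 in Runx1KO. Of the weaker Runx1 peak (chr16:92873153-92873394), the 192 bases of chr16:92873203-92873394 (plus strand) are shown because they held ACCACA 6 times, in capitals, within a repeat of C and A.
Runx1 upstream peak: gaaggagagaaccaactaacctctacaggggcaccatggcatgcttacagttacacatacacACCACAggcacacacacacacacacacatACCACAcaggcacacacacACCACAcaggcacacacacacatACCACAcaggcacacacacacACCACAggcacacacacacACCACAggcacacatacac
Of the 3 closing regions at the locus that overlapped a control Runx2 peak, 0 overlapped one in Runx1KO, while 72.4% of the 1882 such regions over the genome did (1362 regions). The control Runx2 folds on these 3 were 8.80, 4.19 and 2.92. Over the genome, control Runx2 peaks without a Runx1KO partner had a median fold of 3.83, against 4.66 for those with one.

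**Figure D4:**
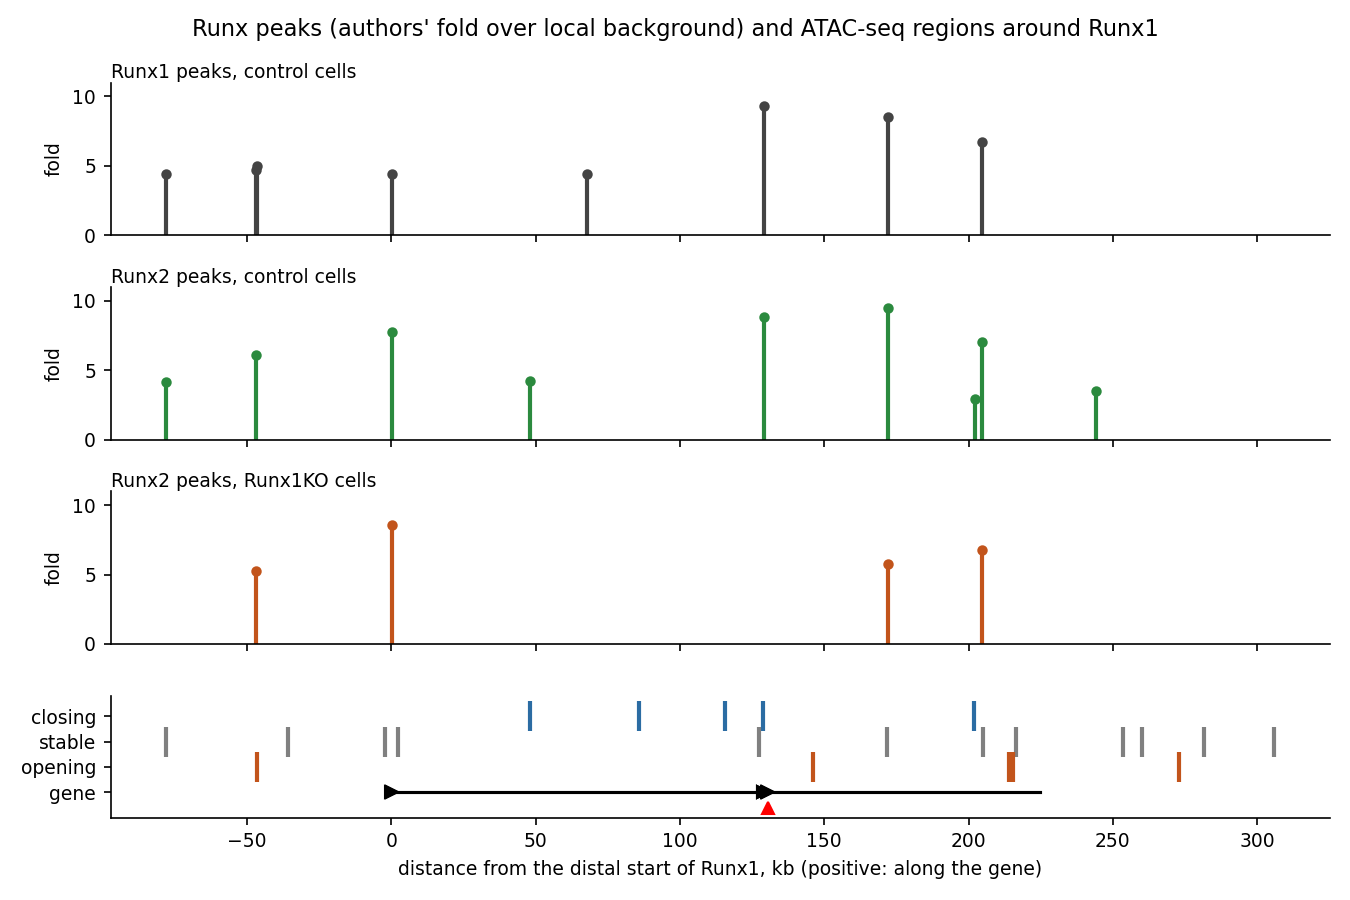
Summary of the Runx1 locus by distance in kb from the distal start (horizontal axis, positive along the gene), with the fold over local background (vertical axis) of Runx1 peaks in control and Runx2 peaks in control and Runx1KO, then closing, stable and opening ATAC-seq regions, the gene with its starts (arrowheads) and the expected deletion (red triangle). The Runx2 peak at the proximal start has a fold of 8.80 in control and no counterpart in Runx1KO, and the peak at the distal start is 7.72 in control and 8.55 in Runx1KO.

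The Runx2 gene spans chr17:44632936-44951746 on the minus strand (318811 bp) and its locus held no Runx1 peak, whereas 66.7% of protein-coding loci had 1 or more. It held 4 Runx2 peaks in each line, and all 4 control peaks had a partner in Runx1KO. An intron peak on a closing region (chr17:44736846-44737230) went from 4.15 to 3.25. A peak at chromosome position 44913938 went from 3.18 to 4.67, a ratio of 1.47 that was higher than those of 97.7% of paired peaks. This peak lay 37124 bp from the nearest Runx2 start, and its nearest gene start was that of Supt3h. A stable region at chr17:44870853-44873588 lay at the proximal starts, and no Runx peak was listed at the distal starts. Runx2 RNA was thus lower in Runx1KO at a locus whose 4 Runx2 peaks were kept and which had 4 closing, 13 stable and 0 opening regions.

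Runx3 lies at chr4:134676567-134733905 on the plus strand (57339 bp). Its locus held 2 Runx1 peaks, 5 control Runx2 peaks and 3 Runx1KO Runx2 peaks. At the distal start (chr4:134676332-134676646), the Runx2 fold went from 4.65 to 3.34, a ratio of 0.718. Both Runx1 peaks lay outside the gene, the stronger (7.60) at the start of the neighbour Clic4, where Runx2 went from 8.83 to 6.97. No ATAC-seq region lay within 1 kb of a Runx3 start, and the nearest to the distal start was a closing region 24445 bp away. Cbfb lies at chr8:107694574-107741886 on the plus strand (47313 bp), with no Runx1 peak at its locus. Its start had a stable region (chr8:107694063-107695712) and a Runx2 peak at chr8:107694345-107695079 that was 5.38 in control and 5.24 in Runx1KO. The Cbfb locus had 4 Runx2 peaks in control and 7 in Runx1KO, of which 3 had no control partner, and 14 stable, 2 opening and 0 closing regions. Those 3 peaks lay downstream of Cbfb, nearest to the starts of D230025D16Rik, 4931428F04Rik and E2f4, with folds of 3.40, 2.71 and 2.96. Within the Cbfb gene body, 2 Runx2 peaks were listed in control and 2 in Runx1KO.

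Over the 4 loci, 15 of 22 control Runx2 peaks had a partner in Runx1KO (68.2%), close to the 62.0% over the genome. Those without one numbered 5 of 9 at Runx1, 2 of 5 at Runx3, 0 of 4 at Runx2 and 0 of 4 at Cbfb. All 4 members had a Runx2 peak within 1 kb of a start in both lines, as did 24.6% of protein-coding genes. Taken singly, the share was 27.9% in control and 29.3% in Runx1KO. The core motif TGTGGT, searched on both strands over the whole length of each peak, was present in 7 of the 10 Runx1 peaks at the loci, beside 33.1% of 9977 Runx1 peaks read. It was present in 12 of 22 control Runx2 peaks and 11 of 18 Runx1KO ones, beside 40.0% of 17360 and 44.6% of 15393.

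**Figure D5:**
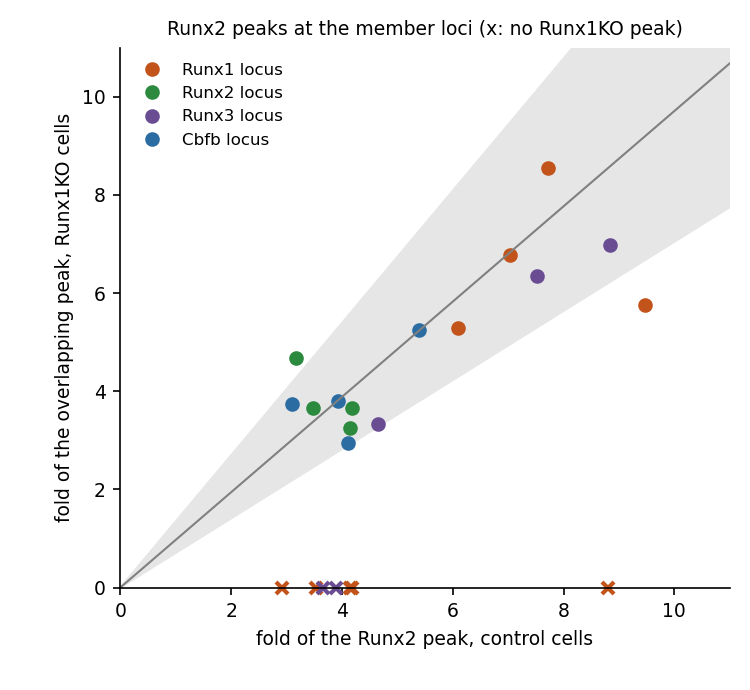
Fold over local background of each control Runx2 peak at the 4 loci (horizontal axis) against that of the overlapping Runx1KO peak (vertical axis), coloured by locus, with crosses at 0 for control peaks that had no Runx1KO peak. The line is the median ratio over the genome, 0.971, and the shading its 5th to 95th percentiles. The Runx1 intron peak (9.47 and 5.76) lies below the shading, and the proximal Runx1 promoter peak is the cross at 8.80. A Runx2 locus peak whose nearest gene start is that of Supt3h (3.18 and 4.67) lies above the shading.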

How the data were processed

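RNA-seq of control mK4, Runx1KO and ZebDKO cells gave the levels, and ChIP-seq and ATAC-seq the regions. The authors trimmed reads, aligned them to mm9, counted genes with featureCounts 1.6.2 and deposited TPM values in a 9-library and a 6-library table, so the depth behind a value is unknown. The authors called peaks with MACS2 on combined replicates and deposited their fold over background (a ratio) and -log10 q-values, with peaks seen by the Runx1 antibody in Runx1KO removed. They also deposited ATAC-seq regions in 3 classes. The authors' own fold changes and p-values held beside those regions were not used. The paper names DESeq2 1.26.0 for differential gene expression, and its results were not used either.

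The members and lists were chosen with earlier results of these data known. limma 3.58.1 with a trend was fitted to log2(TPM + 1) over the 6 libraries of each comparison, for genes at 1 TPM or more in at least 3 of them, with Benjamini-Hochberg adjustment at 0.05, and was tested on simulated data. Named list genes were those with the largest changes among the genes that passed, and like genes the 5 with the highest Pearson's r, of which 1 is not reported here. Regions overlapped by at least 1 bp, and loci reached 100 kb beyond each gene. Genes came from GENCODE vM1 on NCBIM37 (mm9) and promoters from RefSeq (GRCm38.p6). Libraries listed 12541 to 12697 genes at 1 TPM or more and correlated within groups at r of 0.997 or more. The alternatives covered the pseudocount, filter, scaling, trend, table, replicate block, left-out libraries, locus width, overlap and motif length.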

Additional observations from a re-analysis of the deposited data

Results flagged for a closer look

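The Runx1 and Cbfb results were flagged because 2 knockouts of the same line gave different changes. The difference itself was tested, in the direct comparison of the knockouts. In that comparison 80% of 13071 genes passed, so passing alone did not set a member apart. A larger fitted change than that of Runx1 was seen for 7.37% of genes, and a larger one than that of Cbfb for 58.7%. Runx1 was higher than control in 3 of 3 Runx1KO libraries and lower in 3 of 3 ZebDKO libraries, and the ZebDKO level was below the Runx1KO level by -1.47 on the log2(TPM + 1) scale (limma adjusted p = 4.45e-07). Cbfb was lower in ZebDKO than in Runx1KO by -0.33 (limma adjusted p = 0.000103), lower in 3 of 3 libraries. The epithelial marker sum was 2660.6 to 2742.6 TPM in Runx1KO and 1150.8 to 1209.6 TPM in ZebDKO, and its part in these differences was not tested.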

How the results depend on the processing

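Of 135 alternative values for the member differences, 133 kept their direction and their side of the threshold. Both exceptions were Runx2 in ZebDKO against Runx1KO: 0.095 with the opposite sign under quantile normalization (limma adjusted p = 0.208) and -0.14 past the threshold without a trend (limma adjusted p = 0.0343). Leaving out 1 library at a time changed no member's call, with Runx1 at 0.67 to 0.79, -0.80 to -0.68 and -1.49 to -1.42 over the 3 comparisons, Runx2 at -0.51 to -0.39, -0.65 to -0.53 and -0.17 to -0.11, and Cbfb at -0.12 to -0.054, -0.45 to -0.38 and -0.36 to -0.31. A filter of 5 TPM left Runx2 out of all 3 comparisons. Same-numbered libraries did not deviate together (r -0.05 to 0.04, with 3 of 9 best with their own number), and with the replicate block the Runx1KO differences were 0.74 for Runx1 (limma adjusted p = 0.000522), -0.45 for Runx2 (0.00401) and -0.10 for Cbfb (0.0808), and no member's call changed. Of 552 alternative list counts, 29 moved by over 1.5 times, in ZebDKO against control to 4 rises and 5 falls of corepressors under median-ratio scaling. Within gene bodies alone, the loci held 5 Runx1 peaks, 13 and 9 Runx2 peaks in control and Runx1KO, 19 stable and 3 opening regions, by construction. The longer motif TGTGGTT was in 3 of 10 Runx1, 7 of 22 control Runx2 and 3 of 18 Runx1KO Runx2 peaks at the loci, beside 16.6%, 20.1% and 22.3% of all such peaks, so the last was below its background. With a pseudocount of 0.1, 3 of the 5 genes most like Runx2 were shared. TPM carries no read depth, so no counting error could be given, and Runx3, at 0.3 TPM or less, was tested only with no filter.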
